A study of Mus musculus with 4 samples.

Results

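Albumin (Alb), alpha-fetoprotein (Afp), afamin (Afm), transthyretin (Ttr) and the 3 fibrinogen chain genes (Fga, Fgb and Fgg) encode plasma proteins that the liver secretes, and the methylation signal at these 7 genes was compared between fetal livers of food restricted and freely fed dams. The genes were represented by the array probes whose start lay in 3 windows on mouse genome build mm9: chromosome 5 from 90870000 to 91000000 for Alb, Afp and Afm, chromosome 18 from 20800000 to 20840000 for Ttr, and chromosome 3 from 82810000 to 82900000 for Fga, Fgb and Fgg. These windows held 160 of the 415749 usable probes, with 59 probes in the Alb-Afp-Afm window, 27 in the Ttr window and 74 in the fibrinogen window. All 160 had values on all 4 arrays, and none was left out by a filter.

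The samples were livers of C57BL/6J mouse fetuses taken on gestation day 18. Control dams ate chow without limit, and food restricted dams received 50% of the amount eaten by the control dams from gestation day 10 to 17. Each group was 1 pool of liver DNA, described as N = 6, and the sources used here do not say whether this counts fetuses or litters. DNA carrying methylated cytosine was immunoprecipitated from each pool and hybridised against total DNA of that pool (the reference) on a 2-colour tiling array (MeDIP-chip), once in each dye orientation, so that slide 1 and slide 2 each carried both pools.

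The measure M of a probe is log2 of its immunoprecipitated over its reference signal, with the median of each array set to 0. The difference D is the M of the food restricted array less that of the control array of its slide. Both arrays of a pool repeated 1 sample technically, so the difference between the pools has no replicate check and no test was possible. A probe was called higher or lower in the food restricted pool when D reached 0.5 or more, or -0.5 or less, on slide 1 and slide 2 alike. M rises with the number of methylated CpG dinucleotides (a C followed by a G) on a DNA fragment, so it ranks stretches of DNA and does not give a methylation percentage. No RNA was measured, so the labelled tissue could not be checked against marker genes.

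Alb, Afp and Afm belong to one gene family and lie next to each other in the same orientation. Alpha-fetoprotein is the fetal counterpart of albumin, the main carrier protein of adult plasma, and its production by the liver falls after birth. Transthyretin carries thyroid hormone and, with retinol binding protein, vitamin A, and the fibrinogen chains assemble into the precursor of the blood clot. Methylation of CpG dinucleotides near the start of a gene is commonly low where the gene is active and higher where it is silent, although promoters with few CpGs follow this rule less closely.

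The promoter sequences are shown because the CpG dinucleotides they hold bound what a methylation assay can record there. Of the 7 genes, 6 were matched in the RefSeq promoter table of build GRCm38.p6, and Ttr was not. The following runs are the 250 bases before the start of Alb (chr5:90460620-90460869, plus strand), Afp (chr5:90490464-90490713, plus strand), Afm (chr5:90518699-90518948, plus strand) and Fgg (chr3:83007474-83007723, plus strand), with every CG in capitals. These coordinates are on GRCm38.p6 and cannot be set against the mm9 positions of the probes.
Alb: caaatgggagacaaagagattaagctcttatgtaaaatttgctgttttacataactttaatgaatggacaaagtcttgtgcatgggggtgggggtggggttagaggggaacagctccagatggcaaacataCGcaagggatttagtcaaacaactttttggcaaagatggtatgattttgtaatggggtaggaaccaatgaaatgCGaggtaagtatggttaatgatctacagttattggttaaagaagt
Afp: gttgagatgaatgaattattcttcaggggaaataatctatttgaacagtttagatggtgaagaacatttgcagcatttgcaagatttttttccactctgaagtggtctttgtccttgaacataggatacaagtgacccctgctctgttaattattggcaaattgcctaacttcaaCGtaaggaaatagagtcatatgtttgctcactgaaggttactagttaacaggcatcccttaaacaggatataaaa
Afm: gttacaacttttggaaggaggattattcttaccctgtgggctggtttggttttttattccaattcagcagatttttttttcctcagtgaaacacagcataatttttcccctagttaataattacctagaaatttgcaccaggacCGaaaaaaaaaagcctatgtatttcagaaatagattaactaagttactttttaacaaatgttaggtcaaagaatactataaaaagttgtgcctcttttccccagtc
Fgg: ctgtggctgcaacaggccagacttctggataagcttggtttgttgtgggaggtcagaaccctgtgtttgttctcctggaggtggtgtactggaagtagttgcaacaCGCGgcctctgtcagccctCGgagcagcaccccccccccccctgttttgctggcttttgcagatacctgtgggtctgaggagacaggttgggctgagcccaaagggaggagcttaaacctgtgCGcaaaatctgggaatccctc

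All 6 promoters held fewer CpGs than the median promoter, with Fgb and Fgg between the quartiles. The search was for CG, which reads the same on both strands. Alb held 2 CGs, 119 and 45 bases before the start, Afp held 1 at 75 bases and Afm held 1 at 106 bases. Fgg, which encodes the gamma chain, held 4, at 144, 142, 125 and 21 bases before the start. Fga, for the alpha chain, held 2 and Fgb, for the beta chain, held 3. Over the 32851 promoters of the same length in the table the median was 6 CGs, with quartiles of 2 and 16, and 92.1% held at least 1. Afp and Afm thus stood in the 18.8% of promoters with at most 1 CG, Alb and Fga in the 29.0% with at most 2, Fgb in the 37.8% with at most 3 and Fgg in the 44.4% with at most 4. The GC content was 33.2% for Afm, 36% for Afp and 39.2% for Alb, against 56.8% for Fgg and a median of 52.4% over all promoters. A CG count is a property of the reference sequence and says nothing about its methylation.

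On the array the probes lay in short tiled groups, separated by gaps of more than 2000 bp without probes. The Alb-Afp-Afm window held 3 groups, of 26 probes (90886492 to 90890883), 16 probes (90916422 to 90920739) and 17 probes (90944752 to 90949026). The Ttr window held 1 group of 27 probes (20820293 to 20824869). The fibrinogen window held 3 groups, of 13 probes (82810065 to 82812780), 23 probes (82826601 to 82831057) and 38 probes (82852762 to 82860411). In the GRCm38 annotation the genes follow each other along the chromosome as Alb, Afp and Afm, and as Fgg, Fga and Fgb. Probes carry positions but no gene names, and no mm9 annotation was used here, so the groups are called first, middle and last, no group was assigned to a gene, and exons, introns and UTRs are not given.

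The level of enrichment differed more between the groups than between the pools. The middle group of the Alb-Afp-Afm window was the most enriched of the 7, with a median M of 2.12 on slide 1 and 1.98 on slide 2 on the control arrays and 2.25 and 2.36 on the food restricted arrays. Both food restricted arrays lay above both control arrays there. The first group of that window had a median M of 0.37 and 0.51 on the control arrays and 0.65 and 0.43 on the food restricted arrays, and the last group had 0.89 and 0.44 against 0.85 and 0.30. In both of these groups the values of the pools overlapped.

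The Ttr group was the least enriched, with a median M of -0.26 and -0.66 on the control arrays and -0.37 and -0.62 on the food restricted arrays. In the fibrinogen window the first group had 0.28 and -0.10 on the control arrays and 0.32 and 0.48 on the food restricted arrays. The middle group had 0.04 and 0.21 against 0.06 and -0.06. The last group had 0.60 and 0.67 against 0.45 and 0.47. The food restricted arrays lay above both control arrays in the first fibrinogen group and below both in the last, and the pools overlapped in the middle group and in the Ttr group. The share of all groups on the array whose pools separate like this is not given here. The separation in these groups and in the middle Alb-Afp-Afm group is therefore only a description. In the last fibrinogen group the median of D was nevertheless 0.04 on each slide. Within a slide the difference of the medians and the median of the differences thus had opposite signs. With D averaged over the slides first, the median was -0.0025.

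Among the 18968 groups of at least 10 probes on the array, built by the same rule, the median M over all 4 arrays stood at percentile 94.5 for the middle Alb-Afp-Afm group (M 2.18) and at percentile 32.1 for the Ttr group (M -0.61). The other groups lay between percentile 55.2 and 71.8, where the first fibrinogen group (55.2) counts only its 13 probes inside the window. The quartiles of all groups were -0.80 and 0.84. Leaving out the centring, or centring on the densest value, cannot change the order of the groups. With quantile normalization, loess, normexp correction and the immunoprecipitated channel alone the middle Alb-Afp-Afm group stayed highest of the 7. The Ttr group stayed lowest except with loess normalization within arrays and with normexp background correction, where the first fibrinogen group was lowest (-0.00084 and -0.10, against 0.056 and -0.02 for the Ttr group).

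Along most groups enriched stretches (M above 1 on all 4 arrays at 3 or more neighbouring probes) alternated with depleted ones (M below 0). The middle Alb-Afp-Afm group had no depleted stretch and the middle fibrinogen group no enriched one. In total 48 of the 160 probes (30%) had M above 1 on all 4 arrays, against 27.2% of all probes, and 49 (30.6%) had M below 0 on all 4, against 41.5%. The middle Alb-Afp-Afm group had 12 of 16 probes above 1 on all arrays and 1 below 0. The Ttr group had 5 of 27 above 1 and 15 below 0. The 38 probes of the last fibrinogen group divided into 15 above 1 and 10 below 0, the 23 of the middle one into 3 and 9, and the 13 of the first into 4 and 4. M below -1 on all 4 arrays was found at 8 probes (5%), against 15.2% of all probes. Over the probes M of the 2 control arrays correlated at r = 0.90 and M of the 2 food restricted arrays at r = 0.90, while the pools correlated at r = 0.91 on slide 1 and 0.94 on slide 2. These are descriptions across probes, which share a pool and neighbouring fragments.

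In the first Alb-Afp-Afm group the enrichment rose to a single peak near its far end. The 4 probes from 90889773 to 90890352 had a median M of 2.22 and 2.05 on the control arrays and 2.36 and 2.28 on the food restricted arrays. Just before them, 3 probes from 90888823 to 90889204 had -1.61 and -1.23 against -0.83 and -0.98, and none of these 3 had the scanner software's flag for a signal well above background in the immunoprecipitated channel on all arrays. The middle group had an enriched stretch at each end, 7 probes from 90916422 to 90917814 with 2.19 and 1.86 on the control arrays and 2.15 and 2.34 on the food restricted arrays, and 4 probes from 90919646 to 90920739 with 2.52 and 2.73 against 2.94 and 2.88. At these last 4 probes D was above 0 on both slides at 4 of 4, with a median of 0.44 and 0.29. However, in the immunoprecipitated channel alone the median of their mean D was -0.44, against -0.19 for all probes. The last group fell from an enriched stretch of 4 probes (90944752 to 90945228, median M 1.84 and 1.99 on the control arrays, 1.81 and 2.00 on the food restricted arrays) to a depleted one of 4 probes (90947812 to 90948374, -1.26 and -0.53 against -0.88 and -0.51), and its final probe was enriched again.

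**Figure D1:**
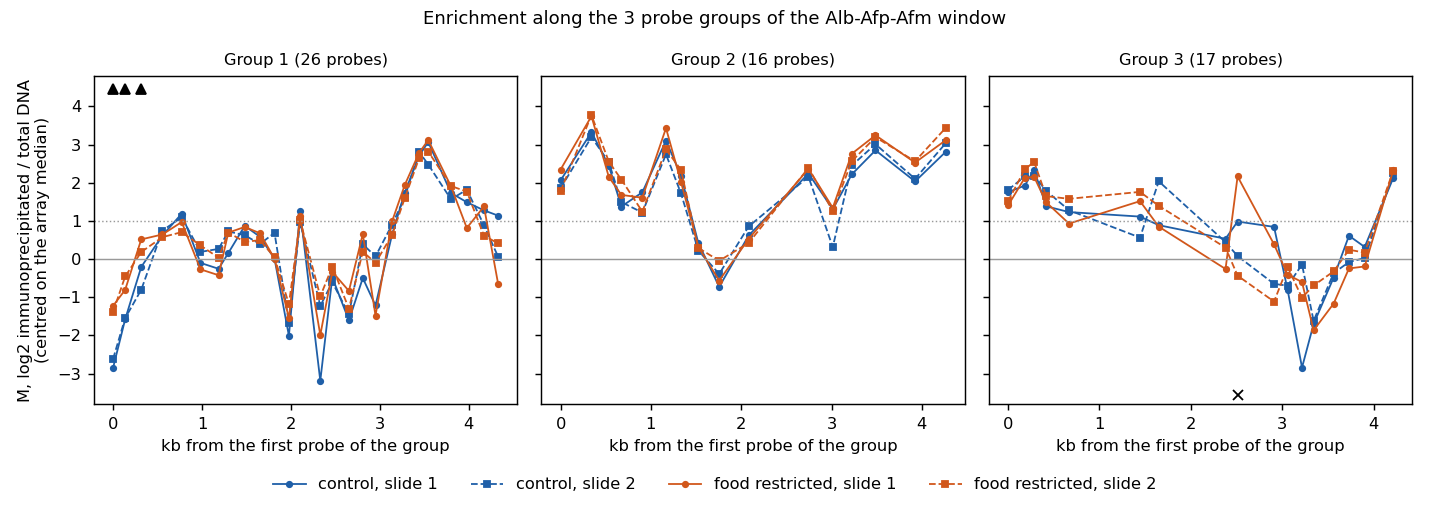
M (log2 immunoprecipitated over total DNA, centred on the array median) at each probe of the Alb-Afp-Afm window, against the distance in kb from the first probe of its group, for the 4 arrays. Lines join the probes of 1 array, upward triangles mark the 3 probes called higher in the food restricted pool, all at the start of the first group, and the cross marks a probe not well above background in either channel on any array; the middle group lies above M = 1 (dotted line) at 12 of 16 probes on all arrays.

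The probe with the highest mean M of the Alb-Afp-Afm window lay in the middle group, from 90916764 to 90916819. Its M was 3.33 on slide 1 and 3.20 on slide 2 on the control arrays and 3.75 and 3.77 on the food restricted arrays, at percentile 95.5 of all probes for the mean. The background-subtracted immunoprecipitated signal was 374 and 268 on the control arrays and 411 and 307 on the food restricted arrays, and the reference signal was 111 and 151 against 65.4 and 95.6. Centred on its array, the immunoprecipitated signal of this probe differed by -0.49 and -0.39 between the pools and the reference signal by -0.67 and -0.68, so that the higher ratio in the food restricted pool went with a lower reference signal. The window's lowest mean M was at its first probe, from 90886492 to 90886551, with -2.85 and -2.62 on the control arrays and -1.23 and -1.38 on the food restricted arrays. This probe was not well above background in the immunoprecipitated channel on any array.

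The Ttr group began with a long depleted stretch and held 1 main peak. In the 11 probes from 20820293 to 20822158 the median M was -1.11 and -1.01 on the control arrays and -0.82 and -0.77 on the food restricted arrays. D was above 0 on both slides at 8 of these 11 probes and below 0 on both at 0. Over all probes these shares were 37.1% and 24.8%. Of the 11, 3 had an immunoprecipitated signal well above background on all arrays. In the peak, 4 probes from 20823627 to 20824087, the median M was 2.03 and 1.97 on the control arrays and 1.76 and 1.74 on the food restricted arrays. All 4 were measured well above background, and D was below 0 on both slides at 4 of 4, with a median of -0.29 and -0.23. Neither stretch reached the size of a call as a median. D also varied with the level over the whole array. The median D of all probes was 0.25 and 0.28 at mean M under -1, and 0.06 on each slide from -1 to 0. It was -0.16 and -0.06 at mean M from 1 to 2, and -0.01 and 0.12 from 2 to 3. The median of the mean D was above 0 in all 14 alternative settings of the processing for the depleted stretch (0.0014 to 0.51), while that of the peak, -0.26, turned to 0.062 with loess normalization and to 0.091 with normexp correction. Settings that pair the arrays across the slides or read the deposited value table repeat the reported values by construction, so they could not change the sign. Stretches were chosen by their level on all 4 arrays, and their D is given as a description.

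The highest mean M of the Ttr window was at the probe from 20823757 to 20823816, with 2.23 and 2.19 on the control arrays and 2.22 and 2.10 on the food restricted arrays, and the values of the pools overlapped. The immunoprecipitated signal of this probe was 105 and 90.2 on the control arrays and 144 and 114 on the food restricted arrays, and the reference signal was 63.2 and 98.9 against 62.2 and 106. The lowest mean M was at the probe starting at 20821935, with -1.68 and -2.17 against -1.50 and -1.25. The probe was dim on both control arrays. Its D was 0.18 and 0.92, and the mean of 0.55 turned to -0.29 with normexp correction.

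**Figure D2:**
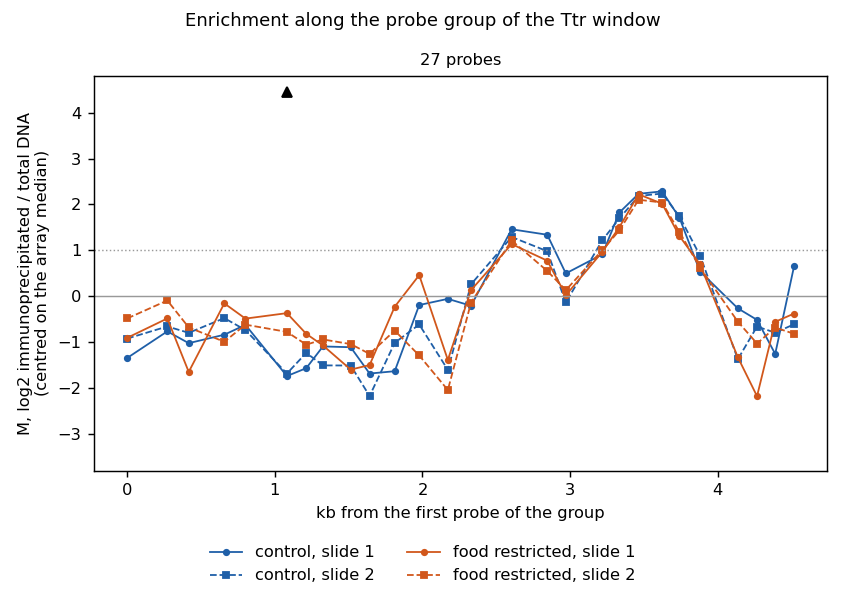
M (log2 immunoprecipitated over total DNA, centred on the array median) at the 27 probes of the Ttr window against the distance in kb from the first probe, for the 4 arrays. The first 11 probes lie below 0 on all arrays, the peak of 4 probes lies between 3 and 4 kb with both food restricted arrays below the control array of their slide (not so as a median with loess or normexp), and the triangle marks the 1 probe called higher in the food restricted pool.

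In the fibrinogen window the first group rose from a depleted stretch of 3 probes (82810241 to 82810881, median M -2.26 and -1.64 on the control arrays, -1.42 and -1.35 on the food restricted arrays) to an enriched stretch of 4 probes (82811896 to 82812645, 2.51 and 2.44 against 2.44 and 2.60). All 4 enriched probes had an immunoprecipitated signal well above background on all arrays, and none of the 3 depleted ones did. The middle group had the narrowest range, with mean M from -1.81 to 1.50, and 2 depleted stretches near its start. The last group held 3 peaks. Its largest had 8 probes (82855981 to 82857251) with a median M of 2.38 and 2.29 on the control arrays and 2.42 and 2.29 on the food restricted arrays, and D was above 0 on both slides at 4 of them and below 0 on both at the other 4. The smaller peaks, of 3 probes each, had 2.19 and 2.46 against 2.27 and 2.49 (82853578 to 82854099) and 2.65 and 2.90 against 2.81 and 3.29 (82858297 to 82858824).

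The highest mean M among all 160 probes was at the top of that largest peak, from 82856781 to 82856840, at percentile 97 of all probes. Its M was 3.60 and 3.29 on the control arrays and 3.76 and 4.39 on the food restricted arrays, so the pools differed by 0.16 on slide 1 and by 1.11 on slide 2. The immunoprecipitated signal was 141 and 99.5 on the control arrays and 154 and 138 on the food restricted arrays, over a reference signal of 31.8 and 49.3 against 22.8 and 27.6. The reference signal of the food restricted pool on slide 1 was not well above background there. The lowest mean M of the window was at the probe from 82810564 to 82810623, with -3.42 and -1.87 on the control arrays and -1.42 and -1.35 on the food restricted arrays.

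**Figure D3:**
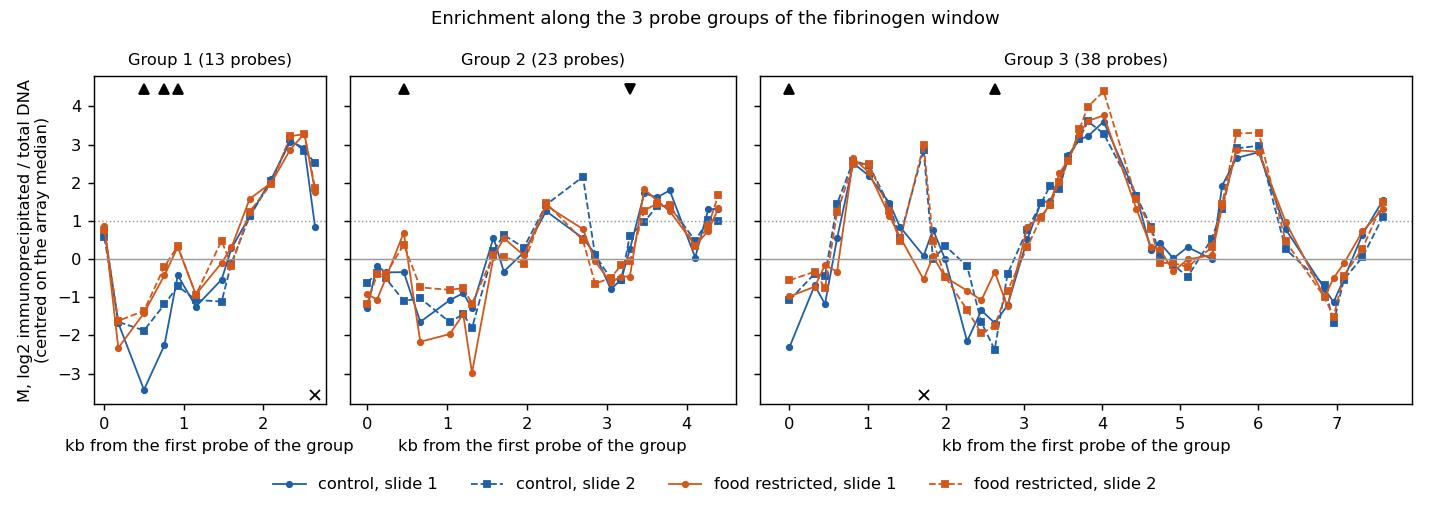
M (log2 immunoprecipitated over total DNA, centred on the array median) at each probe of the fibrinogen window against the distance in kb from the first probe of its group, for the 4 arrays. Upward triangles mark the 6 probes called higher in the food restricted pool and the downward triangle the 1 called lower, all away from the peaks, and crosses mark probes not well above background in either channel on any array.

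The comparison between the pools asked whether maternal food restriction was accompanied by a different methylation signal at these genes. Few probes passed the size of a call. Higher in the food restricted pool were 10 of the 160 probes (6.25%), against 9.85% of all probes called in that direction, and lower was 1 (0.625%), against 2.48%. A further 11 probes (6.88%) passed the size on both slides with opposite signs, against 3.84% of all probes, so at these genes as many probes disagreed between the slides as were called. The median D of the members was 0.08 and 0.07 on the slides, and that of all probes 0.03 and 0.10. The median of the mean D was smaller, 0.0085 for the members against 0.066 for all probes. The members' value turned to -0.15 with the densest value as the centre, to -0.25 in the immunoprecipitated channel alone and to -0.015 without dim immunoprecipitated probes. Over all probes these settings gave -0.090, -0.19 and 0.041. D was above 0 on both slides at 60 probes (37.5%, against 37.1% of all probes) and below 0 on both at 38 (23.8%, against 24.8%). D correlated between the slides at r = 0.14 over the 160 probes and at r = 0.29 over all probes.

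By window, the median D was 0.10 and 0.11 for Alb-Afp-Afm, 0.02 and -0.08 for Ttr and 0.05 on each slide for fibrinogen. The median of the mean D was 0.10, -0.047 and -0.0025 in that order. It turned to -0.052 for Alb-Afp-Afm with each array centred on its densest value and to -0.26 in the immunoprecipitated channel alone. In these settings Ttr had -0.20 and -0.18, and fibrinogen -0.16 and -0.25. Without centring the median of the mean D was above 0 for all 3 windows (0.19, 0.038 and 0.082), against 0.15 for all probes. The 10 higher calls comprised 3 in the Alb-Afp-Afm window, 1 in the Ttr window and 6 in the fibrinogen window, and the lower call was in the fibrinogen window. When neighbouring probes were joined into regions of at least 3 probes, the windows were covered by 20 regions with 158 of the 160 probes. Of these regions 0 were higher (4.52% of 56653 regions), 0 were lower (0.643%) and 0 passed the size with opposite signs (0.733%), and their mean D ranged from -0.42 to 0.42.

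The higher calls lay at probes with little enrichment. All 10 higher probes had a mean M below 0, against 65.6% of all higher probes on the array, and 9 were not well above background in the immunoprecipitated channel on both control arrays, against 38.2%. Such a dim probe has only a bound on its ratio there. With normexp correction 0 of the 10 kept the call, with a mean D from 0.019 to 0.40, and with loess 4 did. Among the 29 member probes with mean M under -1, 7 (24.1%) were called higher, against 16.4% of all probes of that level. Their median D was 0.38 and 0.47, against 0.25 and 0.28 for all probes of that level. Of the 29, 2 (6.9%) had an immunoprecipitated signal well above background on all arrays, against 28.8%. Among the 33 from -1 to 0, 3 (9.09%) were called higher, against 8.09%. Of the 38 from 0 to 1, 1 (2.63%) was called lower, against 3.66%, and of the 60 probes with mean M above 1, 0 were called. Over all probes 0.52% were called higher and 2.54% lower at mean M from 1 to 2, and 1.00% and 0.18% from 2 to 3. The 9 probes with mean M over 3 had a median D of 0.33 and 0.38, against 0.41 and 0.56 and a share of 34.8% called higher over all probes of that level. Over the whole array the control pool had the dimmer immunoprecipitated signal, with a median background-subtracted signal of 39.1 and 29.5 against 63.2 and 43.8 in the food restricted pool, and the part of this in the calls was not tested.

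**Figure D4:**
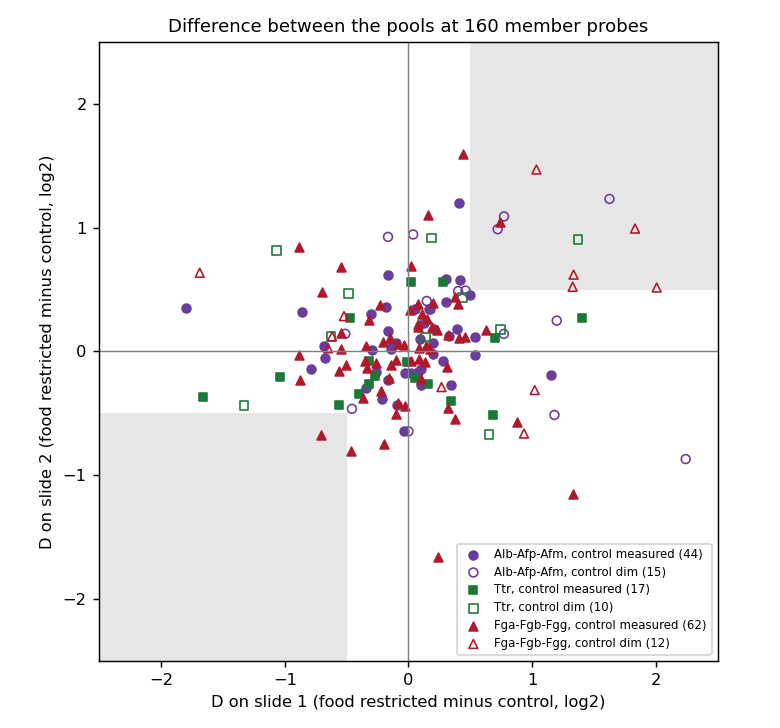
D (M of the food restricted array less M of the control array, log2) on slide 2 against D on slide 1 for the 160 probes, by window. Open symbols are the 37 probes not well above background in the immunoprecipitated channel on both control arrays, and grey areas are the calls; 9 of the 10 points in the upper area are open, and the lower area holds 1 filled point.

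The higher calls of the Alb-Afp-Afm window were the first 3 probes of its first group. The probe from 90886492 to 90886551, described above as the lowest of the window, had D of 1.63 and 1.23. The next, from 90886628 to 90886687, had M of -1.58 and -1.55 on the control arrays and -0.81 and -0.46 on the food restricted arrays (D 0.77 and 1.09). Both probes were dim in both pools, so no fold is given. The third, from 90886809 to 90886868, had -0.21 and -0.80 against 0.52 and 0.19 (D 0.72 and 0.99), was dim on both control arrays and was at least 1.25-fold higher in the food restricted pool by that bound, but its mean D fell from 0.86 to 0.25 with loess and 0.019 with normexp correction. The called Ttr probe, from 20821375 to 20821434, had M of -1.74 and -1.68 on the control arrays and -0.37 and -0.77 on the food restricted arrays (D 1.37 and 0.91). It was dim in the control pool and its bound was under 1, so no fold is given.

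In the fibrinogen window 3 of the 6 higher calls were neighbours in the first group. The probe from 82810564 to 82810623, the lowest of the window, had D of 2.01 and 0.52, was dim in the control pool and has no fold. The probe from 82810822 to 82810881 had M of -2.26 and -1.19 on the control arrays and -0.42 and -0.20 on the food restricted arrays (D 1.83 and 0.99). It was at least 1.28-fold higher by the bound, but its mean D fell from 1.41 to 0.87 with loess and 0.23 with normexp correction. The probe from 82810990 to 82811036 was the only higher call measured well above background on all 4 arrays. Its M was -0.42 and -0.71 on the control arrays and 0.32 and 0.34 on the food restricted arrays, which is 1.86-fold higher, with D of 0.74 and 1.05. The immunoprecipitated signal of this probe was 42.1 and 28.6 on the control arrays and 161 and 122 on the food restricted arrays, and its reference signal was also higher there, with 274 and 407 against 170 and 249. With loess normalization its mean D turned to -0.36, with normexp correction it was 0.40, and in the immunoprecipitated channel alone it was 1.36.

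The other higher fibrinogen calls were single probes among neighbours that were not called. In the middle group the probe from 82827060 to 82827119 had M of -0.34 and -1.10 on the control arrays and 0.69 and 0.38 on the food restricted arrays (D 1.03 and 1.47). It was at least 1.28-fold higher by the bound, but its mean D fell from 1.25 to 0.67 with loess and 0.18 with normexp correction. In the last group the probe from 82855387 to 82855445 had -1.67 and -2.37 against -0.34 and -1.75 (D 1.34 and 0.62). Its immunoprecipitated signal was well above background on 1 of the 4 arrays, food restricted on slide 1, so no fold is given. The probe from 82852762 to 82852821 had -2.31 and -1.08 against -0.98 and -0.55 (D 1.33 and 0.52) and was dim in both pools, so no fold is given.

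The lower call was at a measured probe of the middle fibrinogen group, from 82829890 to 82829949. Its M was 0.25 and 0.62 on the control arrays and -0.46 and -0.06 on the food restricted arrays, which is 1.62-fold lower, with D of -0.71 and -0.68. The call was lost with loess (mean D -0.54), with normexp correction (-0.19) and with D taken across the slides. The immunoprecipitated signal was 48.6 and 40.9 on the control arrays and 41.2 and 36.4 on the food restricted arrays, and the reference signal was 113 and 133 against 114 and 152. The probes on either side, starting at 82829782 and 82830070, had D of 0.08 and 0.38 and of 0.11 and 0.30. In the same group 6 of 23 probes had D below 0 on both slides (26.1%, against 24.8% of all probes). As many, 6, had D above 0 on both (26.1%, against 37.1%). Among those below 0 were the probes starting at 82829455 (-0.20 and -0.75) and at 82830871 (-0.56 and -0.16).

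Below the size of a call, 2 groups leaned towards the food restricted pool, the first fibrinogen group only in its part inside the window. In the middle Alb-Afp-Afm group D had a median of 0.22 and 0.21 on the slides, with D above 0 on both slides at 10 of 16 probes and below 0 on both at 1, and 0 probes called. Over all probes 37.1% had D above 0 on both slides and 24.8% below 0 on both. The group's median over the mean of the slides stood at percentile 86.8 of the array's groups, inside the range from -0.17 to 0.41 that held 95% of them. The immunoprecipitated channel did not move with it. Centred on its array, the immunoprecipitated signal of the group differed by -0.36 and -0.35 between the pools, against -0.23 and -0.20 over all probes, and the reference signal by -0.22 and -0.29, against 0.10 on each slide. In the immunoprecipitated channel alone its median D was -0.33, and in the other 13 alternative settings it was above 0, from 0.086 with the densest value as the centre to 0.38 with loess, against 0.24 as reported. It was 0.14 with quantile normalization, 0.13 with the running median taken off and 0.092 when dim immunoprecipitated probes were left out as well. With the densest value as the centre the median on slide 1 was -0.029. In the first fibrinogen group the median D was 0.37 and 0.13, with D above 0 on both slides at 8 of 13 probes. The median of the mean D stood at percentile 84.8 and was above 0 in all 14 alternative settings (0.07 to 0.37). The immunoprecipitated signal of that group differed by 0.11 and 0.04. For both groups D across the slides and the deposited value table repeat the reported values by construction, so these settings could not change the sign. The 13 fibrinogen probes are part of a group of 20 cut by the window, and were ranked against whole groups. The 7 probes outside had a median of the mean D of 0.066, with D above 0 on both slides at 2 and below 0 on both at 2. The Ttr group stood at percentile 18 and the other groups between percentile 24.3 and 49.2.

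The edges of the windows fell in gaps between groups, except that the start of the fibrinogen window divided a group of 20 probes and left 7 outside. The last probe before that edge, starting at 82809910, had D of -0.67 and -1.10, and the first inside, starting at 82810065, had 0.08 and 0.19. Of the 7 probes left outside, 1 was higher and 1 was lower.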

How the data were processed

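The submitters' processing notes name Agilent Feature Extraction 10.5.1.1. Its processed intensity, which the authors deposited for both channels, was corrected for local background, holds a surrogate where a signal was dim, and carries a linear dye factor but no normalization between arrays, per the file headers. Probe positions refer to build mm9. The sources used here do not name the antibody. Of 420288 spots, 4474 control spots and 65 probes with outlier flags (0 in the windows) were left out.

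M was computed from the processed intensities in Python 3.11.15 (pandas 2.3.3), with the ratio turned by the dyes that the titles name and centred on the array median, with no loess or quantile step; alternatives used limma 3.58.1 in R 4.3.3. The scripts were checked on simulated data. D was taken within a slide, because slide and dye orientation coincide. The replicate number marks the slide, so the numbers pair the arrays. On both slides the control pool had array position 1 and the food restricted pool position 2, so position and pool cannot be told apart. Bounds set a dim pool at the lowest processed signal among probes well above background on its array. The number of arrays, 4 of 2 pools, limits the precision.

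The deposited value table gives the log2 ratio of red to green processed intensity without turning or centring, with column medians from -0.225 to 0.242. Its columns for the food restricted pool on slide 1 and the control pool on slide 2 hold each other's scanner values, with differences of at most 0.001 at 100% of probes, and run against their own arrays (r = -0.91). The scanner files were used, since their ratios have the direction that the titles' dyes give, and each column was assigned to the array it equals.

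Named are, in each window, the probes with the highest and lowest mean M and every called probe, and every probe group. A list of other plasma protein genes was not analysed, since the reference tables used here hold no mm9 positions. The members and lists were chosen with earlier results of these data known. The alternatives covered centring, normalization, background correction, dim probes, level, channel, slide and the size of a call.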

Additional observations from a re-analysis of the deposited data

How the results depend on the processing

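Settings were changed 1 at a time, and 2 of the 18 alternatives (the extended windows, and a filter on dim immunoprecipitated probes combined with a running median) were added after seeing the data. The counts are member probes called higher and lower, 10 and 1 in the reported setting, and the median D of all member probes, 0.0085 there. The median D of all probes on the array, 0.066, moved to -0.090 with the densest value as the centre and to -0.19 in the immunoprecipitated channel alone. No centring gave 17 higher and a median D of 0.093, and the densest value of each array as the centre gave 6 higher, 3 lower and -0.15, with 56.4% of all calls on the array higher in place of 79.9%. Quantile normalization gave 8 higher (5%, against 4.30% of all probes), 4 lower (2.5%, against 3.70%) and 0.031, with 53.8% of all calls higher. Subtracting a running median of D over mean M gave 3 lower (1.9%, against 3.49%) and 0.038, with 55.0% of all calls higher. Loess gave 13 higher (8.1%, against 11.9%), 1 lower (0.625%, against 2.37%) and 0.013. It kept 4 of the 10 higher calls and 0 of the 1 lower. Normexp correction gave 5 higher (3.1%, against 5.41% of all probes), 0 lower (against 0.011%) and 0.091, with 99.8% of all calls higher. It kept 0 of the 10 higher calls, and its offset of 50 shrinks dim signals by construction. The immunoprecipitated channel alone gave 14 lower (8.75%, against 4.59% of all probes) and -0.25, with 58.0% of all calls higher. Leaving out dim immunoprecipitated probes kept 107 probes and gave 1 higher (0.93%, against 7.87% of all probes kept) and -0.015. With the running median also taken off it gave 2 higher (1.87%, against 2.60%) and 0.037. A size of at least 1 gave 2 higher (1.25%, against 1.98% of all probes) and 0 lower (against 0.43%). At least 0.3 gave 21 (13.1%, against 17.1%) and 8 (5%, against 6.15%). Windows extended to whole probe groups gave 2 lower (1.20%, against 2.48%) and a median of 0.026. The deposited value table and the filter on dim reference probes each gave 10 and 1. Over all probes the shares were 9.84% and 2.48% for the value table and 10.2% and 1.27% for the filter. With regions as the unit, 0 were higher, 0 were lower and the median was -0.0098.

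With no replicate block for the slide, D taken across the slides gave 9 higher probes (5.6%, against 8.55% of all probes) and 2 lower (1.25%, against 1.75%). It kept 6 of the 10 higher calls and 0 of the 1 lower. A single slide gave 26 to 27 higher and 15 to 26 lower probes, with a median D from 0.070 to 0.075, since the call then rests on 1 array of each pool. On slide 2 alone 16.25% were higher and 9.4% lower, against 22.3% and 9.12% of all probes. Slide 1 alone had 16.9% and 16.25%, against 21.1% and 11.2%. The D of the fibrinogen probe starting at 82810990 turned to -0.36 with loess. The lower probe starting at 82829890 lay between -0.85 and -0.19 in all its settings. The cause of these changes was not tested except where the construction of the setting is named. In the reported setting 107 of the 160 probes (66.9%) had an immunoprecipitated signal well above background on all arrays, and 149 (93.1%) a reference signal.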

Other observations

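The nearest probe groups outside the windows give the surroundings of the genes. Before the Alb-Afp-Afm window, at a distance of 87807 bp, 18 probes (90794338 to 90798685) had a median M of -1.34 and -1.24 on the control arrays and -0.87 and -0.85 on the food restricted arrays, and 2 were called higher. After it, at 110687 bp, 24 probes had 0.38 and 0.44 against 0.35 and 0.38, with 1 called in each direction. Before the Ttr window, at 102651 bp, 22 probes (20713109 to 20717642) had -1.81 and -1.37 on the control arrays and -1.22 and -1.08 on the food restricted arrays, with 6 called higher. Of these 22, 13 were not well above background in the immunoprecipitated channel on both control arrays. After it, at 78099 bp, 23 probes had -0.50 and -0.26 against -0.86 and -0.44, with 2 higher and 1 lower. The groups on either side of the fibrinogen window, at 99028 and 706647 bp, had a median M over all arrays of -0.13 and 0.09.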
